A study of Mus musculus with 2 samples.

Results

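The 10 genes followed here were core and output genes of the circadian clock: Arntl, Clock, Npas2, Nr1d1, Nr1d2, Per2, Per3, Dbp, Tef and Ciart. They were found by gene symbol in the feature lists of the 2 libraries, and all 10 were present among 32286 features. Single-cell RNA sequencing had been done on lungs of female BALB/c mice of 9 to 10 weeks that received intravenous injections for 3 weeks, either of control media (CM, 1 library) or of tumor conditioned media (TCM, 1 library). The conditioned media came from cultured 4T1 mammary tumors, and the CM mice served as the control for injection and medium. The number of mice behind each library and the hour at which the lungs were taken are not given in the sources used here. Clock genes change with the hour of the day, so the medium, the mouse and the hour of collection cannot be told apart in any difference given below. With 1 library per group there was no replicate check and no test. Every interval is a 95% interval for counting error only.

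The mammalian clock is a feedback loop of transcription that runs in nearly every cell. BMAL1 (the product of Arntl) pairs with CLOCK or NPAS2 and binds E-box elements in DNA, where it drives the positive arm's targets: the period and cryptochrome genes, the REV-ERB receptors encoded by Nr1d1 and Nr1d2, Ciart, and the PAR bZIP factors DBP and TEF. Period and cryptochrome proteins then repress BMAL1 and CLOCK, REV-ERB proteins repress Arntl and Npas2, and PAR bZIP factors act on D-box elements of other clock and output genes. Arntl and Npas2 therefore peak at an opposite phase to Nr1d1, Nr1d2, Per3 and Dbp in most tissues. In the lung the clock is known to run in epithelial cells, fibroblasts, endothelium and macrophages, and to gate inflammatory responses. Arntl, Clock and Npas2 are called the positive arm here and the other 7 genes the negative arm, which thus also holds the E-box and D-box output genes Ciart, Dbp and Tef.

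The CM library held 31944151 unique molecular identifiers (UMIs, each standing for 1 captured RNA molecule) and the TCM library 36648719. After droplets under 500 UMIs, under 200 genes or above 10% mitochondrial UMIs were set aside, 7988 CM and 7707 TCM cells remained, with 93 barcodes in common against 83.5 for independent draws. Marker genes, alveolar epithelial ones included, placed 5903 and 6104 of these cells in 17 classes, each holding 50 or more cells per library. Most classes had 3 to 7 of their own markers among their 10 leading genes. The exception was a set of endothelial cells that no endothelial subclass led, whose leading genes included Ccl21a, Mmrn1 and Reln. Neutrophil-like cells numbered 238 in CM and 1456 in TCM, and the median UMI count of AT2-like cells (alveolar type II, the surfactant-making cells) was 1738 in CM and 5134 in TCM. For this reason each gene was compared within classes, as CPM, the gene's UMIs scaled to 1000000 UMIs of its class. The ratio over all classes was a Mantel-Haenszel rate ratio, which combines the classes' own ratios. The level of free RNA per cell, estimated from 6 haemoglobin and club cell genes in lymphocytes, was 124 UMIs in CM and 271 in TCM.

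RNA of the clock genes was sparse. The highest number of cells with a UMI was reached by Clock, with 644 CM and 701 TCM cells, and the lowest by Npas2, with 53 and 52. Of the 170 combinations of member and class, 56 had at least 20 UMIs over both libraries, and only for these was a class ratio formed.

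**Figure D1:**
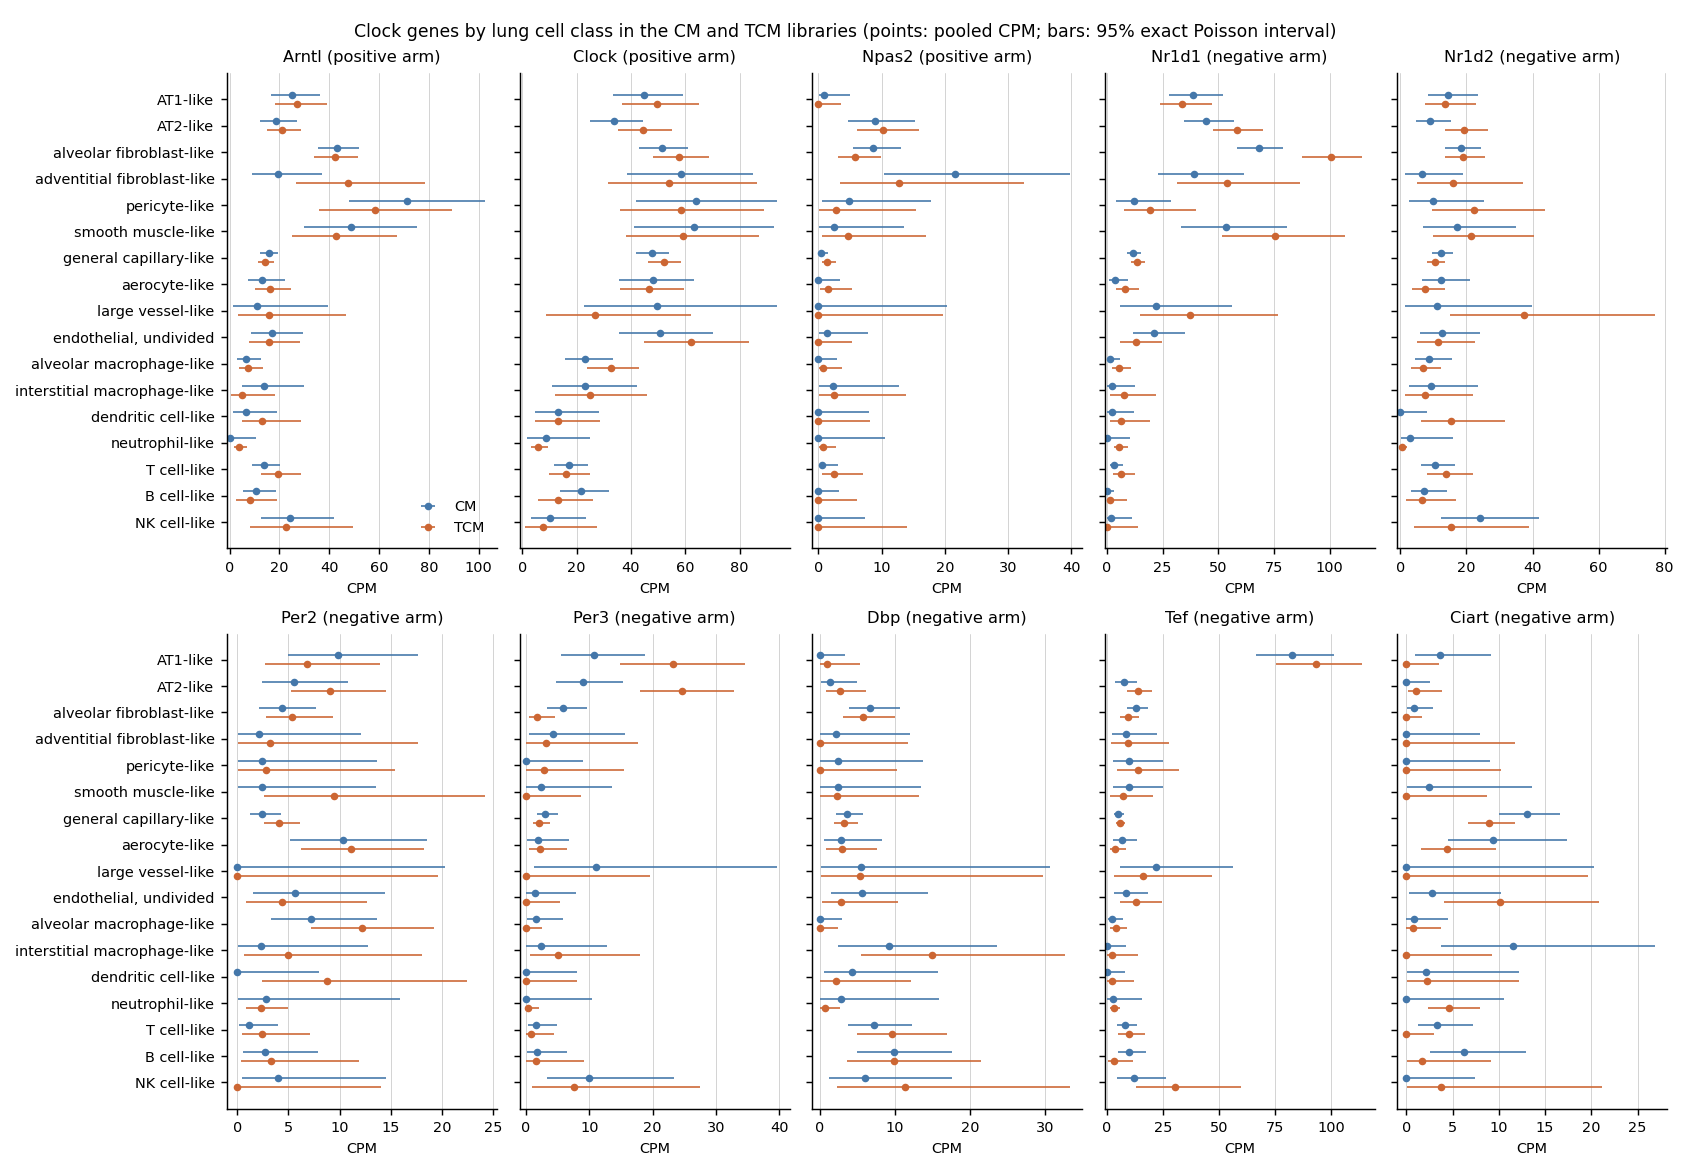
Level of each of the 10 clock genes (CPM within the class, x axis) in 17 marker-defined cell classes (y axis) in the CM library (blue) and the TCM library (orange), with bars for the 95% exact Poisson interval. Tef stood highest in AT1-like cells at 82.7 and 93.2, and Nr1d1 in alveolar fibroblast-like cells at 68.3 and 100.5.

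Among the positive arm, Arntl (chr7:113207465-113314126, plus strand, GRCm38.p6), which encodes BMAL1, gave 394 UMIs in the CM classes and 395 in the TCM classes. Its level was highest in pericyte-like cells, the contractile cells on capillaries, at 71.3 CPM in CM and 58.3 in TCM. In smooth muscle-like cells it was 48.6 and 42.6, and in alveolar fibroblast-like cells 43.2 and 42.2. The 2 fibroblast classes, pericyte-like and smooth muscle-like cells summed carried 2.98-fold (2.43 to 3.66) the level of all other classes in CM and 3.21-fold (2.60 to 3.95) in TCM. The mesenchymal weight of Arntl was thus present in both libraries. Neutrophil-like cells held 0 Arntl UMIs in CM, where 3 counts would correspond to 8.54 CPM, and 10 in TCM, or 3.80 CPM. The TCM to CM ratio of Arntl within classes was 0.04 on the log2 scale (-0.16 to 0.25), with 5 classes higher and 5 lower. Adventitial fibroblast-like cells stood apart from this, with 9 UMIs in CM (19.5 CPM) and 15 in TCM (47.7 CPM). Their log2 ratio was 1.29 (0.01 to 2.67), and it ran from 0.72 to 1.82 under the other ways of processing. In that class 2.92% of genes with 20 UMIs were at least 2-fold higher in TCM.

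Clock (chr5:76209868-76304792, minus strand), the partner of BMAL1, had 747 UMIs in CM and 838 in TCM, of which the free RNA profile could account for 4.08% and 8.70%. In neutrophil-like cells, where Clock had 3 and 15 UMIs, subtracting that profile left 5.59 of the 27 positive-arm UMIs in TCM, so such low levels were not read as expression. Unlike Arntl it was well represented in endothelium, where the 4 classes summed held 48.0 CPM in CM and 51.4 in TCM. That was 1.42-fold (1.22 to 1.64) and 1.57-fold (1.37 to 1.80) the rest. Like Arntl it was also high in the 2 fibroblast classes, pericyte-like and smooth muscle-like cells summed, at 54.9 and 57.7 CPM. These stood at 1.57-fold (1.33 to 1.84) the rest in CM and 1.59-fold (1.35 to 1.87) in TCM. Immune classes were low, at 18.3 and 15.4 CPM, or 0.379-fold (0.306 to 0.465) and 0.297-fold (0.241 to 0.364) the other classes. In general capillary-like cells, the largest class, Clock stood at 47.6 in CM and 52.1 in TCM. The log2 ratio over classes was 0.11 (-0.03 to 0.26), and 7 classes were higher in TCM while 6 were lower.

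Npas2 (chr1:39193731-39363236, plus strand), a paralog of Clock that can replace it, had 54 UMIs in CM and 56 in TCM. It was concentrated in the 2 fibroblast classes and AT2-like cells, which held 45 of the 54 and 36 of the 56 UMIs. These classes carried 16.5-fold (7.96 to 38.4) the level of the others in CM and 6.82-fold (3.84 to 12.4) in TCM. The grouping joins the classes where Npas2 stood highest in these same counts, so the folds describe it and test nothing. AT1-like cells held 1 Npas2 UMI in CM and 0 in TCM. No Npas2 UMI was seen in dendritic, B, NK or large vessel-like cells of either library. Its log2 ratio of 0.04 (-0.52 to 0.60) had the widest interval of the 10 members, and a difference inside it was not detectable at this depth.

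Of the repressors, Nr1d1 (chr11:98767932-98775333, minus strand), which encodes REV-ERB alpha, gave 419 UMIs in CM and 566 in TCM. Alveolar fibroblast-like cells held the most, 174 UMIs in CM and 224 in TCM, or 68.3 CPM (58.6 to 79.3) and 100.5 CPM (87.7 to 115). Smooth muscle-like cells followed with 53.5 and 75.7 CPM, AT2-like cells with 44.7 and 58.3, and adventitial fibroblast-like cells with 38.9 and 54.0. Lymphocytes were low. T cell-like cells had 6 UMIs in CM and 8 in TCM (3.32 and 6.46 CPM), B cell-like cells 0 in CM, where 3 counts equal 2.69 CPM, and 1 in TCM, and NK cell-like cells 1 and 0. The 2 fibroblast classes were at 4.55-fold (3.73 to 5.53) the level of the rest in CM and 5.42-fold (4.57 to 6.43) in TCM. Nr1d1 was higher in TCM by 0.43 on the log2 scale (0.24 to 0.61), or 1.34-fold, with 5 of 7 classes higher. Of those 5, AT2-like, smooth muscle-like and general capillary-like cells went below 0 under at least 1 other way of processing, to -0.15, -0.07 and -0.34. The alveolar fibroblast-like class alone gave 0.56 (0.26 to 0.85), with 0.55 to 0.67 under the other ways of processing, whereas AT1-like cells (the thin alveolar type I cells of gas exchange) gave -0.19 (-0.87 to 0.49). Nr1d1 overlaps Thra on the opposite strand, as Dbp does Sphk2, and Per3 overlaps Camta1 on its own strand. Arntl, Tef and Ciart overlap antisense genes on the opposite strand, and Clock and Npas2 overlap pseudogenes. The strand setting of the counting is not given in the sources used here, so the counts of all these members are uncertain to that extent.

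Nr1d2 (chr14:18204054-18239127, minus strand), encoding REV-ERB beta, was spread more evenly, with 230 UMIs in CM and 244 in TCM. Alveolar fibroblast-like cells held 18.5 CPM in CM and 18.8 in TCM, and general capillary-like cells 12.4 and 10.5. The log2 ratio over classes was 0.11 (-0.15 to 0.38). AT2-like cells departed from this, with 13 UMIs in CM (8.94 CPM) and 36 in TCM (19.2 CPM). The log2 ratio there was 1.11 (0.16 to 2.15). With classes taken from clusters instead of the marker gate the AT2 value was 0.64. The free RNA profile could account for 20.4% of the Nr1d2 UMIs in TCM and 4.57% in CM. After its subtraction the ratio over classes was -0.02 and that in AT2-like cells 1.09. As the profile held only 13 Nr1d2 UMIs in TCM and 10 in CM, the shares are rough.

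Per2 (chr1:91415982-91459324, minus strand), a period gene whose protein represses BMAL1 and CLOCK, had 78 UMIs in CM and 118 in TCM. Aerocyte-like cells, the capillary cells specialised for gas exchange, held 10.4 and 11.1 CPM, and alveolar macrophage-like cells 7.21 and 12.2. General capillary-like cells had 12 UMIs in CM and 23 in TCM. Each of the 5 classes with 20 UMIs was higher in TCM, and the log2 ratio was 0.46 (0.04 to 0.88), or 1.37-fold. In these 5 classes every single interval included 0. The direction turned under other ways of processing in alveolar macrophage-like cells (-0.96 to 0.95) and aerocyte-like cells (-0.46 to 0.45), and AT1-like cells, under 20 UMIs, held 11 in CM and 7 in TCM. The free RNA profile could account for 13.01% of the Per2 UMIs in TCM and 0% in CM, and after its subtraction the ratio over classes was 0.33. That profile itself held only 4 Per2 UMIs in TCM and 0 in CM, so these shares are rough.

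Per3 (chr4:151003652-151044665, minus strand) is a period gene used as a clock output marker, and its upstream sequence is shown because it holds 2 copies of a D-box, the element read by DBP and TEF. The 250 bases before the RefSeq start lie at chr4:151044666-151044915 (GRCm38.p6), outside annotated exons, and are printed on the minus strand with both D-boxes (TTATGTAA) in capitals.
Per3 upstream: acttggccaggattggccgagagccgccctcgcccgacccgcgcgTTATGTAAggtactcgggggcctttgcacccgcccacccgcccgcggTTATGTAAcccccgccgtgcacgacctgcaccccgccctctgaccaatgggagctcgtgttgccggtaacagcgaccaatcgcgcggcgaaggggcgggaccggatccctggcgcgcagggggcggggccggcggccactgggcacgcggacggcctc
The copies begin 205 and 158 bases before the start. Searched on both strands, TTATGTAA was present in 0.819% of 32851 upstream windows of the same length in the RefSeq set, and 2 or more copies were present in 6 windows, 0.0183%.

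Per3 RNA had 76 UMIs in CM and 98 in TCM. AT2-like cells held 13 UMIs in CM and 46 in TCM, or 8.94 CPM (4.76 to 15.3) and 24.6 (18.0 to 32.8). AT1-like cells held 12 and 24, or 10.8 (5.57 to 18.8) and 23.3 (14.9 to 34.7). The 46 UMIs in AT2-like cells of TCM came from 34 cells, of which 1 held 7. Log2 ratios were 1.46 (0.55 to 2.47) in AT2-like and 1.11 (0.05 to 2.24) in AT1-like cells, and 2.56% and 2.36% of genes were at least 2-fold higher in TCM in those classes. Alveolar fibroblast-like cells went the other way with 15 and 4 UMIs, under the minimum for a ratio, and general capillary-like cells held 15 and 12. The 2 alveolar epithelial classes thus held 32.9% of the Per3 UMIs in CM and 71.4% in TCM, while their share of all UMIs was 13.4% and 13.7%. Over all classes the log2 ratio was 0.32 (-0.13 to 0.76). Under the other ways of processing, Per3 ranged from 1.23 to 1.65 in AT2-like cells and from 1.11 to 2.76 in AT1-like cells, the last value resting on 1 and 5 UMIs after thinning. Clustering spread these cells unevenly: 226 CM and 290 TCM AT2-like cells fell in 1 cluster and 141 and 29 in another, while 255 and 233 AT1-like cells shared 1 cluster and 34 of CM alone formed another. With clusters as strata, added after the data were seen, the Per3 ratio was 1.38 (0.48 to 2.28) in AT2-like and 1.102 (0.07 to 2.13) in AT1-like cells.

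Ciart (chr3:95878503-95882251, minus strand), also called Chrono, encodes an E-box-driven repressor of the BMAL1 complex. Its upstream sequence carried 3 E-boxes, the element that BMAL1 binds. The stretch outside annotated exons is chr3:95882252-95882478, printed on the minus strand with each E-box (CACGTG) in capitals.
Ciart upstream: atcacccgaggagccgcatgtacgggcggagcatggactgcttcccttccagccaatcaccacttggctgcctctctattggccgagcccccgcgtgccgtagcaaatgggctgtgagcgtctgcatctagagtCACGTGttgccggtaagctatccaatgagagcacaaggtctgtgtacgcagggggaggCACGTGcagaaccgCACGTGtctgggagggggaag
The E-boxes begin 116, 58 and 44 bases before the RefSeq start. This palindrome was found in 6.02% of the 250-base windows, and 3 or more copies in 20 of them, 0.0609%.

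Ciart was found mostly in endothelium, with 76 of 103 UMIs in CM and 63 of 81 in TCM in the 4 endothelial classes. Their level was 5.05-fold (3.21 to 8.14) that of the other classes in CM and 5.94-fold (3.47 to 10.7) in TCM. General capillary-like cells held 64 UMIs in CM (13.02 CPM) and 50 in TCM (8.91 CPM), and aerocyte-like cells 10 and 6. It was the only member that was lower in TCM, with a log2 ratio of -0.62 (-1.06 to -0.18) over classes, or 1.54-fold lower. General capillary-like cells, the only class with enough UMIs for a ratio, gave -0.55 (-1.11 to 0.01). Undivided endothelial cells held 2 UMIs in CM and 7 in TCM, and neutrophil-like cells, few in CM, held 0 and 12.

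Of the PAR bZIP output genes, Dbp (chr7:45705088-45710203, plus strand), a textbook marker of clock phase, was scarce, with 82 UMIs in CM and 75 in TCM. Lymphoid classes held 7.89 CPM in CM and 9.95 in TCM, 2.26-fold (1.37 to 3.64) and 3.51-fold (2.01 to 5.90) the rest. Interstitial macrophage-like cells stood above this lymphoid sum in both libraries, at 9.20 and 14.997 CPM, from 4 and 6 UMIs. T cell-like cells had 13 and 12 UMIs. No Dbp UMI was found in alveolar macrophage-like cells of either library, where 3 counts equal 2.40 and 2.03 CPM, and AT1-like cells held 0 and 1. Its log2 ratio was 0.02 (-0.44 to 0.47).

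Tef (chr15:81802421-81826863, plus strand), the paralog of Dbp, was concentrated in 1 class. AT1-like cells held 92 UMIs in CM and 96 in TCM, or 82.7 CPM (66.7 to 101) and 93.2 CPM (75.5 to 114). That was 11.1-fold (8.45 to 14.6) the level of all other classes in CM and 12.9-fold (9.88 to 16.8) in TCM. In that class Dbp had 0 UMIs in CM and 1 in TCM. The upstream window of the inner Tef start at chr15:81811164-81811413, outside annotated exons, held 1 E-box and is printed on the plus strand with it in capitals, since Tef and Ciart share the element but not the class.
Tef upstream: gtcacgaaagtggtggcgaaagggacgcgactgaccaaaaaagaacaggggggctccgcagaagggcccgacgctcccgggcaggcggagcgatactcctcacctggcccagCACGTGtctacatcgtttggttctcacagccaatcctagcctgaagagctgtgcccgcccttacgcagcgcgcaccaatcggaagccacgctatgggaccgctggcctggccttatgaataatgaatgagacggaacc
A further E-box lay 127 bases before the outer Tef start, in annotated exon sequence that is not printed. The REV-ERB element AGGTCA occurred 77 bases before the start of Nr1d2 and 119 bases before an inner start of Clock, and in 14% of all windows. No E-box was found in the windows of Nr1d1, Nr1d2, Per3 or Dbp, and no AGGTCA in those of Arntl or Npas2. Windows were found for 9 of the 10 members, and these matches describe letters only. Tef gave a log2 ratio of 0.15 (-0.12 to 0.41), with alveolar fibroblast-like cells at -0.46 (-1.32 to 0.37) and AT2-like cells at 0.88 (-0.19 to 2.04). The free RNA profile could account for 14.3% of the Tef UMIs in TCM and 5.58% in CM, and subtraction left 0.09 over classes. These shares are rough, since the profile held only 9 Tef UMIs in TCM and 12 in CM.

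Across the 17 classes, none of the 10 members was 2-fold apart between TCM and CM. Of 15270 genes with at least 20 UMIs, 1.49% were at least 2-fold higher in TCM and 1.39% at least 2-fold lower. The median of the members was 0.11, against 0.02 for all genes, and 9 were above 0 while Ciart was below. Of the 15270 genes, 8177 were above 0 and 7093 below. The middle of all genes, from the 5th to the 95th percentile, ran from -0.47 to 0.54 and contained 9 of the members. Per2 and Nr1d1 lay high within it, with 6.48% and 7.31% of genes above them, and Ciart lay outside, with 3.24% of genes below it. At the level of single classes, 4 of the 56 member ratios were at least 2-fold higher in TCM and 0 at least 2-fold lower, against 3.31% and 2.97% of 122244 gene-by-class ratios. These 4 were Arntl in adventitial fibroblast-like cells, Nr1d2 and Per3 in AT2-like cells and Per3 in AT1-like cells. All 4 rest on low counts. Shares of genes, here and for single classes, cover every depth from 20 UMIs up and were not matched to such counts. No member kept 1 sign in all classes with 20 UMIs over 8 or more such classes, which 0.495% of 7670 genes did; only Arntl and Clock had that many classes, and both were split.

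**Figure D2:**
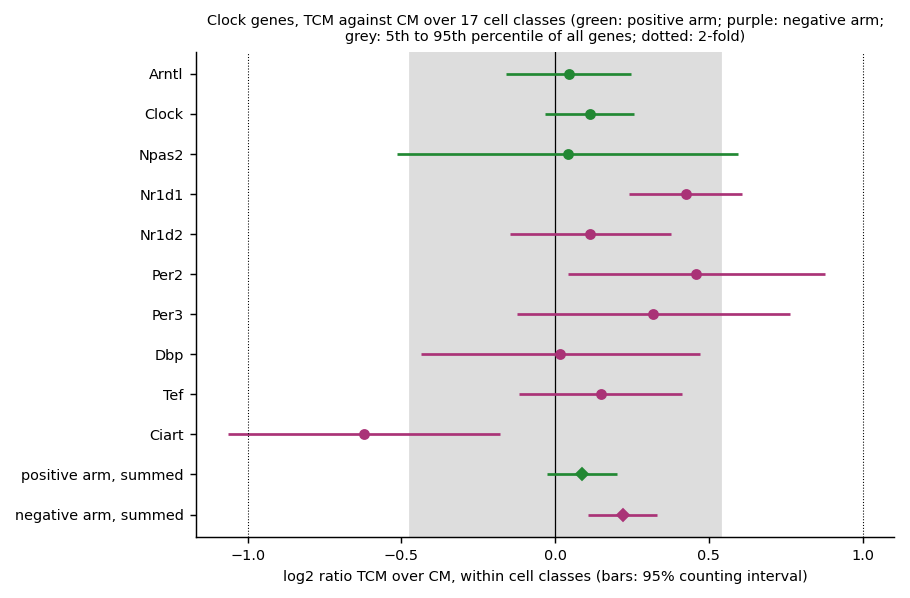
Log2 ratio TCM over CM within classes (x axis) for each member and for the summed arms (y axis), with 95% counting intervals, positive arm in green and negative arm in purple. The grey band from -0.47 to 0.54 holds the 5th to 95th percentile of all genes, dotted lines mark 2-fold, and Ciart at -0.62 is the only member outside the band.

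In a running clock the arms peak at different hours, so the next comparison set the 2 arms side by side. Summed, the negative arm had 1214 UMIs in CM and 1423 in TCM and was higher in TCM by 0.22 on the log2 scale (0.11 to 0.33), 1.16-fold. The positive arm had 1195 and 1289 UMIs and a ratio of 0.09 (-0.03 to 0.20). Clock, which is not among the genes of opposite phase named above, gave 747 and 838 of these UMIs. Without Clock the positive-arm ratio was 0.04. Both sums were thus on the same side of 0, and their difference was 0.13 (-0.03 to 0.29). The negative arm's value rested on Nr1d1: without that gene it was 0.10. Without AT2-like cells the negative arm was 0.14 and the difference 0.08.

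By class, the negative arm was higher in TCM in 13 of 17 classes and the positive arm in 11 of the 16 classes with 20 UMIs. Both counts include neutrophil-like cells, whose low positive-arm levels were not read as expression above. With free RNA subtracted, the negative arm was higher in 11 of 16 classes and the positive arm lower in 5 of 14. How often a gene or a sum of like depth was higher in so many classes was not counted. The median gene of a class lay from -0.06 (neutrophil-like) to 0.12 (alveolar macrophage-like). The 4 classes with a lower negative arm were 3 endothelial classes (general capillary-like at -0.09, aerocyte-like at -0.24 and undivided at -0.08) and B cell-like cells at -0.43. Classes with a lower positive arm were pericyte-like at -0.23, smooth muscle-like at -0.10, interstitial macrophage-like at -0.27, NK cell-like at -0.17 and B cell-like at -0.60. The pattern of a higher negative and a lower positive arm was found in 4 classes: pericyte-like, smooth muscle-like, interstitial macrophage-like and NK cell-like cells. Of these, pericyte-like cells alone kept both signs under every other way of processing, and in the other 3 both arms took either sign. For each of these, and for each of the other 13 classes, the interval of the difference between the arms included 0. The difference was 0.96 (-0.15 to 2.06) in pericyte-like cells, 0.44 (-0.06 to 0.94) in AT2-like cells, 0.24 (-0.11 to 0.58) in alveolar fibroblast-like cells and -0.18 (-0.51 to 0.15) in general capillary-like cells. In dendritic cell-like cells the negative arm summed to 4 UMIs in CM and 17 in TCM. This gave 2.10 (0.48 to 4.13), and 0.33 to 2.23 under the other ways of processing that left a value. In that class 4.42% of genes were at least 2-fold higher in TCM.

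**Figure D3:**
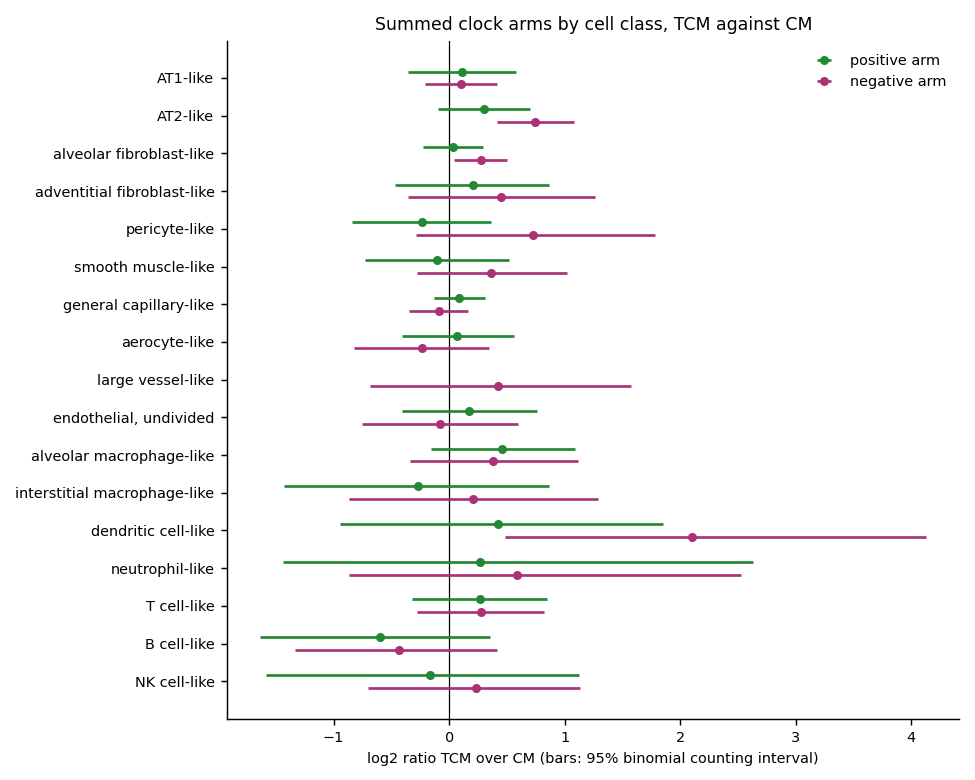
Log2 ratio TCM over CM (x axis) of the summed positive arm (green) and summed negative arm (purple) in each class (y axis), with 95% binomial counting intervals; large vessel-like cells had too few UMIs for the positive arm. Only in AT2-like, alveolar fibroblast-like and dendritic cell-like cells does the purple interval lie above 0, and no green interval leaves it. The dendritic cell-like value rests on 4 UMIs in CM and 17 in TCM. The share of genes with such an interval was not counted.

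AT2-like cells gave the largest negative-arm ratio among classes with over 50 such UMIs. Their 7 negative-arm genes summed to 112 UMIs in CM and 241 in TCM, or 77.0 CPM (63.4 to 92.7) and 129 CPM (113 to 146), and 1 TCM cell held 16 of them. The log2 ratio was 0.74 (0.41 to 1.08). All 7 had a higher CPM in TCM, though Dbp rested on 2 and 5 UMIs and Ciart on 0 and 2. Per2, at 0.72, stayed above 0 under the other ways of processing (0.33 to 0.92), whereas Nr1d1, at 0.38, ran from -0.15 to 0.53 and Tef, at 0.88, from -0.19 to 1.098. The positive arm was also higher, at 0.30 (-0.09 to 0.70), from 89 and 141 UMIs, and the median gene of the class stood at 0.01. Since AT2-like cells were deeper in TCM, the value was taken again with cells cut down to 1000 UMIs each. The thinned value was 0.59 from 30 and 48 UMIs. No counting interval is given for it, so it does not show a rise beyond counting error. With clusters in place of the gate the negative arm was 0.39 and the positive arm 0.03, and with clusters as strata within the gated class the negative arm was 0.81 (0.48 to 1.15).

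Another 20 clock genes were listed beside the members. Of the 18 with 20 UMIs, 0 were 2-fold apart and the median was 0.04, with 10 higher and 8 lower in TCM. Among the largest were Nfil3, a D-box repressor, at 0.42 (0.29 to 0.55) from 838 and 2167 UMIs, Fbxl21, which acts on cryptochrome stability, at 0.36 from 11 and 13 UMIs, and Cipc, a CLOCK inhibitor, at 0.36 (0.09 to 0.63). Per1, which responds to glucocorticoid as well as to the clock, was at 0.05 (-0.07 to 0.17) with 1065 and 1486 UMIs, Cry1 at -0.08 and Cry2 at 0.33. These 3 were named as the remaining core repressors after their values were seen.

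Glucocorticoid hormone has its own daily rhythm and sets peripheral clocks, so 12 genes that it induces, Per1 among them, were counted beside the members. Their median was 0.17, with 10 higher and 2 lower, and 2 were more than 2-fold higher in TCM. These were Zbtb16, a zinc finger factor, at 1.23 (1.14 to 1.33) from 1192 and 2925 UMIs, higher in 12 of 13 classes, and Fkbp5, a chaperone of the glucocorticoid receptor, at 1.03 (0.82 to 1.24) from 264 and 562 UMIs, higher in 11 of 13 classes. Next came the metallothionein Mt2 at 0.38 and Errfi1, a feedback inhibitor of the EGF receptor, at 0.37. Of 12 heat-shock and immediate early genes, which respond to cell stress, 11 were lower in TCM, with a median of -0.30. Hspa1a was at -0.67, Dnajb1 at -0.40, Hsph1 at -0.39 and Atf3 at -0.38. The part of either list in the clock values was not tested.

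**Figure D4:**
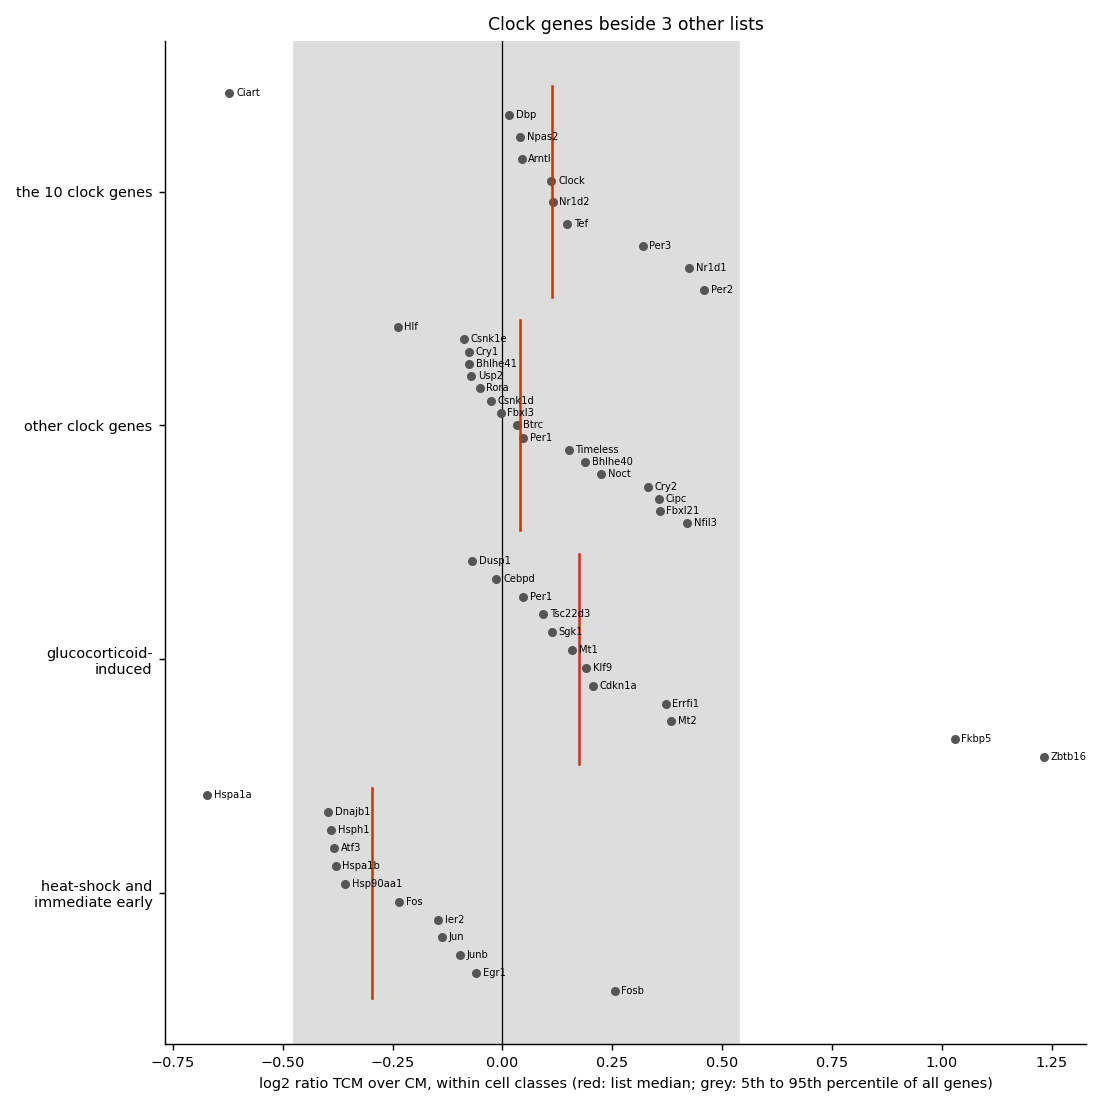
Log2 ratio TCM over CM within classes (x axis) for the genes of 4 lists (y axis; 1 point per gene reported, red line at the list median, grey band from the 5th to the 95th percentile of all genes). Zbtb16 at 1.23 and Fkbp5 at 1.03 stand apart from the clock genes, whose highest value is 0.46 for Per2, and the heat-shock genes lie mostly below 0.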

How the data were processed

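Lung cells had been captured with 5′ droplet chemistry, and the authors aligned reads and counted UMIs with Cell Ranger 4 against mm10 (GRCm38.p6). The deposited files hold raw UMI counts per gene for 737280 barcodes in each library. The authors' cell annotation was not used here, so cells were filtered again and classes set by a marker gate: the class with most detected markers, at least 3, and a lead of 2 over the next lineage. Gated classes are rebuilt names and can differ from those of the study. Doublets were not called; cells without that lead (947 in CM, 810 in TCM) were left out, as were 953 and 533 cells with too few markers and 7 classes under 50 cells in a library.

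UMI counts were summed per class and library (181985 to 5609509 UMIs). Class ratios had binomial (Clopper-Pearson) intervals and levels exact Poisson intervals. The ratio over classes was the Mantel-Haenszel rate ratio with the Greenland-Robins variance (Python 3.11.15, SciPy 1.17.1), checked on simulated data; the alternative clusters used leidenalg 0.10.2. A ratio needed 20 UMIs over both libraries, and 2-fold was a size, not a test. Folds of grouped classes over the rest describe these same counts and are likewise no test. Intervals and floors of 3 counts cover counting error only. Gene positions are from GENCODE and upstream sequences from RefSeq (GRCm38.p6). The members, the lists and the marker genes were chosen with earlier results of these data known. The text names every member, the 4 largest ratios of each list with any past 2-fold, less 1 gene that is not reported here, and the 6 highest and 6 lowest genes of 1 sign in every class.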

Additional observations from a re-analysis of the deposited data

How the results depend on the processing

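The limits come first from the design: 1 library per group, 10 sparse genes, and no hour of collection. No paired analysis was possible because each group had 1 library. Over 9 other ways of processing (scaling, thinning to 1000 UMIs, equal weight per cell, subtraction of free RNA, stricter UMI and mitochondrial limits, looser and stricter gates, clusters) the negative arm ran from 0.16 to 0.25, the positive arm from 0.01 to 0.18 and their difference from 0.03 to 0.25, all above 0. Thinning left out 2172 CM and 1632 TCM cells. The classes with a higher negative arm numbered 5 of 10 after thinning, where fewer UMIs remained, and classes with a lower positive arm numbered 8 of 16 with clusters, against 13 of 17 and 5 of 16 with the gate at full depth; the cause was not tested. After the data were seen, each class and each member was left out in turn. The negative arm then ran from 0.10, without Nr1d1, to 0.30, the positive arm from 0.04 to 0.11 and the difference from 0.01 to 0.21. A further setting, no UMI minimum for a class ratio, cannot change a ratio over classes, and gave 13 of 17 classes with a higher negative arm and 6 with a lower positive arm. Of 90 member values under the 9 settings, 88 stayed within the counting interval, and the others were Dbp at 0.60 and Tef at 0.49 after thinning. The settings largely reuse the same cells and sparse genes have wide intervals, so this count does not measure stability. Npas2, at -0.42 after thinning, still lay within its interval. Ciart stayed below 0 and Clock, Nr1d1, Per2, Per3 and Tef above 0 in all 9, whereas Arntl, Npas2, Nr1d2 and Dbp changed sign in some.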

Other observations

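Among genes outside the lists that kept 1 sign in every class with 20 UMIs, over at least 8 classes, the highest log2 ratios were those of Retnlg (1.16), Serpina3i (1.13), Ccr2 (0.75), mt-Atp8 (0.70), Sult1a1 (0.62) and S100a8 (0.52). Retnlg and S100a8 are neutrophil genes, and TCM held more neutrophil-like cells and more free RNA per cell, whose part in these ratios was not tested. The lowest were Mid1 (-1.40), Dnaja1 (-0.55), L3mbtl2 (-0.49), Cacybp (-0.46), Echdc2 (-0.45) and Nol9 (-0.41), of which Dnaja1 is a heat-shock cochaperone.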
